A study of Homo sapiens with 8 samples.

Results

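The comparison described here is the resistance effect that differed between NCI-H1581 and NCI-H1703, a pair of human non-small cell lung cancer lines. Each was grown under stepwise increases of CPL304110, an inhibitor of fibroblast growth factor receptors (FGFR), until a resistant variant was established. The resistance effect is the log2 fold change of the resistant variant over its own sensitive line. Its difference was formed for each gene as the change in NCI-H1703 minus the change in NCI-H1581, so a positive value means a more positive change in NCI-H1703. All 8 libraries entered a single fit as 4 groups, and 18203 of the 37441 genes in the table had at least 10 counts in total and were tested. Of these, 165 genes totalled 10 counts, with 0 calls among them, and 168 totalled 9 and were left out. The effect differed between the lines for 2803 genes, 15.4% of those tested, at an adjusted p below 0.1 (edgeR quasi-likelihood test).

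Each of the 4 groups held 2 libraries of total RNA, one from each of 2 rounds of culture. NCI-H1581 and NCI-H1703 were the sensitive lines. NCI-H1581R was selected from 50 nM up to 2.5 µM CPL304110 and NCI-H1703R from 50 nM up to 5 µM, over 4 to 6 months. NCI-H1581 and NCI-H1581R grew in DMEM/F12, and NCI-H1703 and NCI-H1703R in RPMI 1640, both with serum, so medium and line cannot be told apart, nor can final dose and line. Cells were harvested 24 h after a change of medium. Whether that medium held the inhibitor is not stated in the sources used here. Each resistant variant is a single derived line, so the p-values measure the spread between culture rounds of that line and not between independent selections.

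FGF receptors pass their signal mainly through RAS and the kinase ERK to transcription factors of the early growth response and ETS families. Sprouty proteins and dual-specificity phosphatases are transcribed in answer and damp the same route. Bone morphogenetic proteins (BMP) signal through SMAD1, SMAD5 and SMAD9 to the ID genes, while TGF-beta uses SMAD2 and SMAD3. The integrated stress response works through the factor ATF4 on genes of amino acid supply, and the unfolded protein response raises the chaperones of the endoplasmic reticulum (ER). Interferons act on a further set of genes that share a short promoter element.

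Library totals ran from 33800389 to 40031710 estimated counts. VIM, which codes for the mesenchymal filament vimentin, had 99631 to 244224 counts in every library. The leukocyte gene PTPRC had 0 to 15 counts, and the 10 blood cell markers tested summed to 16.8 to 104.0 CPM, that is counts scaled to library size, per library, led by the lysosomal gene CD68. Of genes that mark lung epithelium, the junction gene CDH1 showed 0.266 to 1.32 CPM in every library, and the lung lineage factor NKX2-1 13.6 to 59.5 CPM in NCI-H1581 and NCI-H1581R and 0.159 to 0.718 CPM in NCI-H1703 and NCI-H1703R. The epithelial gene EPCAM showed 7.21 to 15.9 CPM in NCI-H1581 and NCI-H1581R and 0.0792 to 0.703 CPM in NCI-H1703 and NCI-H1703R. The 42 epithelial junction and keratin genes tested summed to 548.0 to 811.0 CPM per library. In bulk RNA, fewer cells with a transcript and less transcript per cell cannot be told apart. Whether counting used strand is not stated, so values of genes with exons that overlap another gene are less certain. Among the genes named below these include FGFR1, CCND1, ETV4, EGR3, LTBP1, SMAD1, TGFB2, ASNS, ZEB2, COL1A1, KRT18, MVP, OSGIN1, PEG3 and HOXC9, the last of which shares exons with HOXC6.

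The difference was more positive in NCI-H1703 for 1262 genes (6.93% of those tested) and more positive in NCI-H1581 for 1541 (8.47%). Within the same fit, 4539 genes (24.9%) changed in NCI-H1581R and 1730 (9.5%) in NCI-H1703R. In NCI-H1581R 2330 rose and 2209 fell, and in NCI-H1703R 679 rose and 1051 fell. Counts of members that rose or fell in a list, given below, are to be read beside these. The 2803 genes were sorted by the calls in each line. In 361 genes (1.98% of those tested) both lines passed and moved in opposite ways, with 203 rising in NCI-H1581R and falling in NCI-H1703R and 158 doing the reverse. A further 1633 genes (8.97%) passed in NCI-H1581 alone, 840 rising and 793 falling, and 514 (2.82%) passed in NCI-H1703 alone, 181 rising and 333 falling. Both lines moved the same way by different amounts in 92 genes, and neither line passed by itself in 203. When GC content and transcript length entered the fit as offsets, 1631 genes were more positive in NCI-H1703 and 1347 in NCI-H1581. The median difference over all genes was -0.09 in the main fit and 0.03 with these offsets.

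Most genes that passed in 1 line alone were also expressed in the other. Of the 1633 NCI-H1581-only genes, 239 averaged under 1 CPM in NCI-H1703 and NCI-H1703R, and 1296 had a log2 fold change in NCI-H1703 smaller than 0.5 in either direction. Of the 514 NCI-H1703-only genes, 44 averaged under 1 CPM in the NCI-H1581 libraries and 448 had a change in NCI-H1581 smaller than 0.5. The plot of both lines' changes shows these genes as arms along the axes and the opposite genes as clusters in the upper left and lower right.

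**Figure D1:**
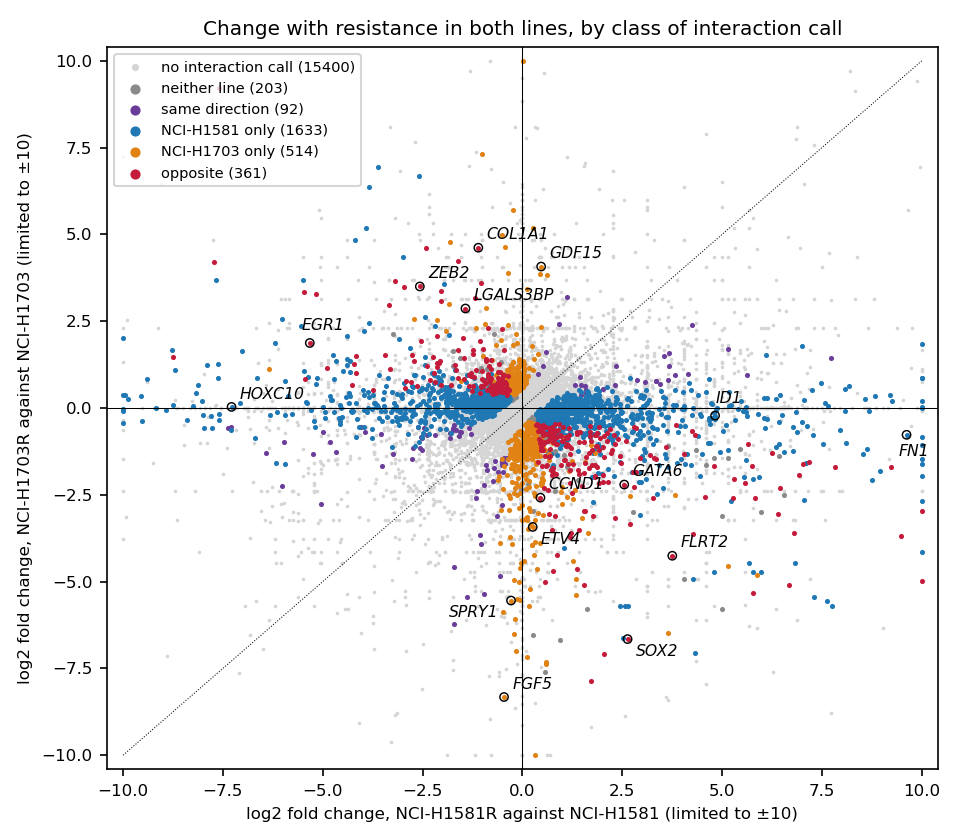
Log2 fold change of resistant over sensitive cells in NCI-H1581 (horizontal axis) and NCI-H1703 (vertical axis), both limited to 10 in either direction, 1 point per gene tested, coloured by class. The 361 genes called in opposite ways fill the upper left and lower right, the 1633 NCI-H1581-only genes lie along the horizontal axis and the 514 NCI-H1703-only genes along the vertical axis.

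Genes that moved in opposite ways included a transcription factor made in answer to growth factors and factors of cell lineage. EGR1, an immediate early factor transcribed when ERK is active, lies on chromosome 5 (GRCh38, 138465479 to 138469303, plus strand). It measured 47.7 and 58.7 CPM in NCI-H1581, 1.57 and 1.09 in NCI-H1581R, 9.19 and 10.0 in NCI-H1703 and 29.6 and 40.8 in NCI-H1703R. The resistant libraries were below the sensitive ones in NCI-H1581 and above them in NCI-H1703, with no overlap in either line. Its log2 fold change of -5.32 ± 0.27 (± is the standard error here and below, with 2 libraries per group) in NCI-H1581 contrasted with 1.87 ± 0.21 in NCI-H1703, a difference of 7.20 ± 0.35 (adjusted p = 1.51e-05, edgeR). SOX2, a stem cell and squamous lineage factor on chromosome 3 (GRCh38, 181711925 to 181714436, plus strand), moved the other way. Its level was 1.72 and 0.499 CPM in NCI-H1581, 6.62 and 6.66 in NCI-H1581R, 38 and 37.2 in NCI-H1703 and 0.555 and 0.185 in NCI-H1703R. SOX2 rose by 2.63 ± 0.40 in NCI-H1581R and fell in NCI-H1703R to under 1 CPM, with a log2 fold change of -6.66 ± 0.41 (difference -9.29 ± 0.59, adjusted p = 5.53e-05, edgeR).

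The repressor ZEB2, which drives mesenchymal conversion, measured 94.8 and 91.2 CPM in NCI-H1581, 13.5 and 17.8 in NCI-H1581R, 0.379 and 0.598 in NCI-H1703 and 5.05 and 5.96 in NCI-H1703R. It lost most of its level in NCI-H1581R (-2.57 ± 0.17) and gained from near 0 in NCI-H1703R (3.50 ± 0.34), so the levels of NCI-H1581R and NCI-H1703R lay closer to each other than those of NCI-H1581 and NCI-H1703. GATA6, an endoderm and lung factor, measured 5.40 and 4.84 CPM in NCI-H1581, 31.5 and 28.4 in NCI-H1581R, 3.24 and 3.23 in NCI-H1703 and 0.714 and 0.686 in NCI-H1703R, a rise in NCI-H1581R and a fall in NCI-H1703R. The neuregulin gene NRG1, a ligand of ERBB3 and ERBB4, with 5 and 0 counts in the NCI-H1581 libraries, rose in NCI-H1581R (6.81 ± 0.61) and fell in NCI-H1703R (-3.61 ± 0.44). Others that rose in NCI-H1581R and fell in NCI-H1703R were the guidance ligand gene SEMA3D (2.33 ± 0.12 and -3.16 ± 0.18) and FLRT2, whose product binds FGF receptors and guidance receptors (3.75 ± 0.19 and -4.25 ± 0.18). The reverse set held LGALS3BP, which codes for a secreted galectin-binding glycoprotein, NID1, which codes for the basement membrane protein nidogen, and the developmental gene EYA4. LGALS3BP measured 9.61 and 9.51 CPM in NCI-H1581, 3.38 and 3.73 in NCI-H1581R, 6.95 and 5.35 in NCI-H1703 and 43.8 and 46.4 in NCI-H1703R, and NID1 141 and 97.7 CPM in NCI-H1581, 40.8 and 36.8 in NCI-H1581R, 463 and 435 in NCI-H1703 and 1478 and 1379 in NCI-H1703R. In both genes the libraries of the resistant and sensitive cells did not overlap in either line.

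Several of the largest differences rested on genes nearly silent in one group, for which a fitted fold change depends on the prior count. PRDM1, a transcriptional repressor that drives terminal differentiation, had 1 count in the NCI-H1581 libraries together and 1396 in NCI-H1581R, a ratio of 1340 with a 95% counting interval of 240.0 to 52900. PEG3, an imprinted zinc finger gene, had 0 counts in NCI-H1581 and 1347 in the resistant variant, at least 212-fold higher against a floor of 3 counts per library. The natriuretic peptide clearance receptor gene NPR3 had 632 counts against 0, at least 100.0-fold higher in the resistant variant. In the other direction TGFB2, a TGF-beta ligand, fell from 2290 counts to 1, a ratio of 2390 (428 to 94400), and FAP, a fibroblast surface protease, from 937 to 2, a ratio of 489 (135 to 4040). These counts are all of NCI-H1581 and NCI-H1581R and show only that side of each difference. Counting intervals and floors cover counting error only.

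**Figure D2:**
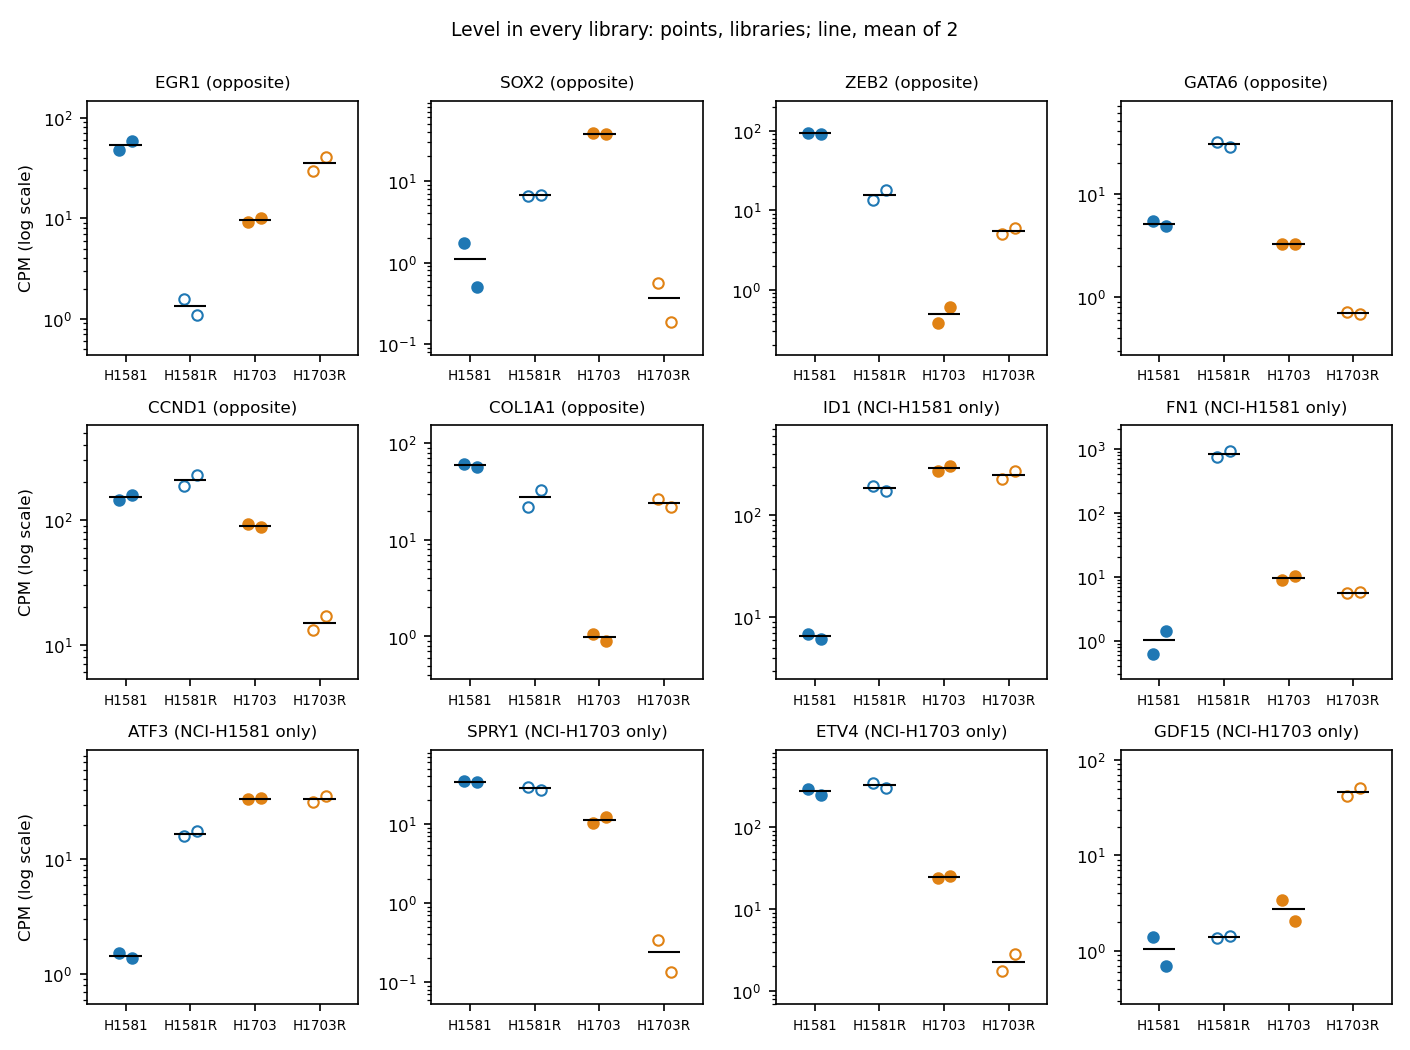
CPM of key genes in each library on a log axis, with 1 point per library and a bar at each group mean, grouped by line and by sensitive or resistant variant. EGR1 and ZEB2 fall in NCI-H1581R and rise in NCI-H1703R, SOX2 and GATA6 do the reverse, and ID1 and ATF3 shift in NCI-H1581R alone.

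Of 30 ERK feedback and output genes tested, 17 (56.7%) had a different resistance effect, against 15.4% of all genes, and 13 of the 17 were more positive in NCI-H1581. Within the lines 16 fell in NCI-H1703R and 12 in NCI-H1581R, with median log2 changes of -0.73 and -0.38 over the list. The feedback inhibitors carried 9 of the 17 calls among 15 members, 8 of them more positive in NCI-H1581, and these 9 became 5 without NCI-H1703 replicate 1. With GC and length offsets they split into 2 more positive in NCI-H1703 and 7 in NCI-H1581.

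SPRY1, a Sprouty inhibitor of receptor signalling on chromosome 4 (GRCh38, 123396795 to 123403760, plus strand), measured 34.5 and 34 CPM in NCI-H1581, 29.4 and 26.8 in NCI-H1581R, 10.1 and 12.4 in NCI-H1703 and 0.344 and 0.132 in NCI-H1703R. It was lost in NCI-H1703R (-5.54 ± 0.33), while its NCI-H1581 change of -0.28 ± 0.16 did not pass (difference -5.26 ± 0.39, adjusted p = 0.000124, edgeR). SPRY4 followed the same course, with -2.94 ± 0.16 in NCI-H1703 and -0.33 ± 0.14 in NCI-H1581. ETV4, an ETS factor downstream of ERK, measured 291 and 247 CPM in NCI-H1581, 344 and 299.7 in NCI-H1581R, 24 and 25.2 in NCI-H1703 and 1.75 and 2.82 in NCI-H1703R and fell in NCI-H1703R alone. The D-type cyclin gene CCND1, which takes cells into S phase and is one of the list's output genes, measured 144 and 159.8 CPM in NCI-H1581, 187 and 228 in NCI-H1581R, 92 and 88.4 in NCI-H1703 and 13.2 and 16.9 in NCI-H1703R. CCND1 rose modestly in NCI-H1581R (0.45 ± 0.15) and fell in NCI-H1703R (-2.58 ± 0.17), without overlap in either line.

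The 4 list members more positive in NCI-H1703 were EGR1, EGR3, FOSL1 and IL17RD. EGR3, a relative of EGR1, also moved in opposite ways, with 5 counts in NCI-H1703 and 57 in NCI-H1703R and a log2 fold change of -5.47 ± 0.67 in NCI-H1581. FOSL1, an AP-1 subunit that ERK stabilises, fell in NCI-H1581R (-3.06 ± 0.23) with -0.07 ± 0.15 in NCI-H1703. IL17RD, a membrane inhibitor of FGF signalling, fell in NCI-H1581R (-2.03 ± 0.33) and rose in NCI-H1703R (0.66 ± 0.19). Not every output differed. DUSP6, the ERK phosphatase, SPRY2 and ETV5 had differences of -0.60 ± 0.33, -0.94 ± 0.57 and -0.61 ± 0.30, and none passed (adjusted p = 0.337, 0.389 and 0.28, edgeR).

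EGR1 is controlled through CArG boxes, the sites of serum response factor, and was the 1 gene of 22 list members with a matched promoter window to hold that motif. Windows ran from 250 bases before to 50 after the RefSeq start site (GRCh38.p14), and 351 of 27305 windows (1.29%) held the motif on either strand. The EGR1 stretch that holds both boxes, at chr5:138465329-138465450 on the plus strand, is shown because this gene moved in opposite ways, with the boxes in capitals.
EGR1: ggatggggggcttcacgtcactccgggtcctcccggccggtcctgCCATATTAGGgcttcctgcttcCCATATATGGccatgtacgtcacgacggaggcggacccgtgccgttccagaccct
A match is a description of the letters and not a measured site.

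Among FGF ligands and receptors, 8 of 26 genes tested (30.8%) differed. FGFR1 fell in both lines, by more in NCI-H1581R (-2.60 ± 0.17) than in NCI-H1703R (-0.54 ± 0.16, difference 2.06 ± 0.23, adjusted p = 0.000924, edgeR). FGFR2 measured 188 and 181 CPM in NCI-H1581, 5.02 and 0.965 in NCI-H1581R, 13.9 and 3.11 in NCI-H1703 and 10.2 and 4.83 in NCI-H1703R. It fell in NCI-H1581R with overlapping levels in NCI-H1703. FGFR3 rose in both lines, by 0.93 ± 0.26 and by 2.41 ± 0.18. Among the ligands, FGF8, an embryonic FGF, measured 1.45 and 1.20 CPM in NCI-H1581, 142 and 168 in NCI-H1581R, 0.649 and 0.777 in NCI-H1703 and 0.476 and 0.396 in NCI-H1703R, and FGF7, which signals to epithelial FGFR2, went from 0 counts to 111, at least 17.6-fold higher in NCI-H1581R. FGF5 fell in NCI-H1703R (-8.32 ± 0.27), and its 8 and 6 counts in NCI-H1581 and NCI-H1581R gave a ratio of 1.39 (0.423 to 4.87).

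Of 21 targets and transducers of BMP and TGF-beta signalling tested, 12 rose and 1 fell in NCI-H1581R, and 2 rose and 4 fell in NCI-H1703R. In the whole list 24 of 48 genes tested (50.0%) differed, 16 more positive in NCI-H1581. The targets and transducers held 13 of these among 21 members (61.9%), 12 more positive in NCI-H1581, with a median change of 2.0 for NCI-H1581 against -0.25 for NCI-H1703. Leaving out any 1 library gave 11 to 13 calls in place of 13. ID1, an inhibitor of DNA binding that BMP induces, lies on chromosome 20 (GRCh38, 31605283 to 31606515, plus strand) and measured 6.86 and 6.14 CPM in NCI-H1581, 195 and 173 in NCI-H1581R, 273 and 303 in NCI-H1703 and 227 and 269 in NCI-H1703R. Both NCI-H1581R libraries stood far above NCI-H1581 and near the level of NCI-H1703, and both NCI-H1703R libraries lay slightly below those of NCI-H1703, a change that did not pass. It changed by 4.83 ± 0.17 in the first line, compared with -0.22 ± 0.13 in the second (difference -5.04 ± 0.22, adjusted p = 9.42e-06, edgeR).

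ID3, of the same family, measured 8.87 and 7.87 CPM in NCI-H1581, 172 and 145 in NCI-H1581R, 552 and 573 in NCI-H1703 and 437 and 551 in NCI-H1703R, with the NCI-H1703R libraries again lowest in that line without passing. SMAD1, the BMP transducer, measured 0.415 and 0.374 CPM in NCI-H1581, 26.9 and 20.3 in NCI-H1581R, 37.7 and 38.7 in NCI-H1703 and 32.8 and 35.6 in NCI-H1703R, rising from the lowest level of the 4 groups. The list also holds inhibitors of the route, and these rose too. SMAD6 and SMAD7, which block SMAD signalling, rose in NCI-H1581R (2.04 ± 0.12 and 2.84 ± 0.25). Their values in NCI-H1703 were -0.26 ± 0.13 and -0.59 ± 0.14, and the fall of SMAD7 passed. LTBP1, which stores latent TGF-beta in the matrix, rose in NCI-H1581R (5.64 ± 0.29) and fell in NCI-H1703R (-1.04 ± 0.21).

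Ligands of this family ran against the targets. Of 15 ligand genes tested, 9 fell and 2 rose in NCI-H1581R, and 6 differed between lines, 5 of them more positive in NCI-H1703. BMP7 fell in NCI-H1581R (-3.52 ± 0.16) with -0.37 ± 0.13 in NCI-H1703, and BMP6 fell in both lines (-5.97 ± 0.53 and -0.98 ± 0.20). TGFB2 was nearly lost in NCI-H1581R, as given above.

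**Figure D3:**
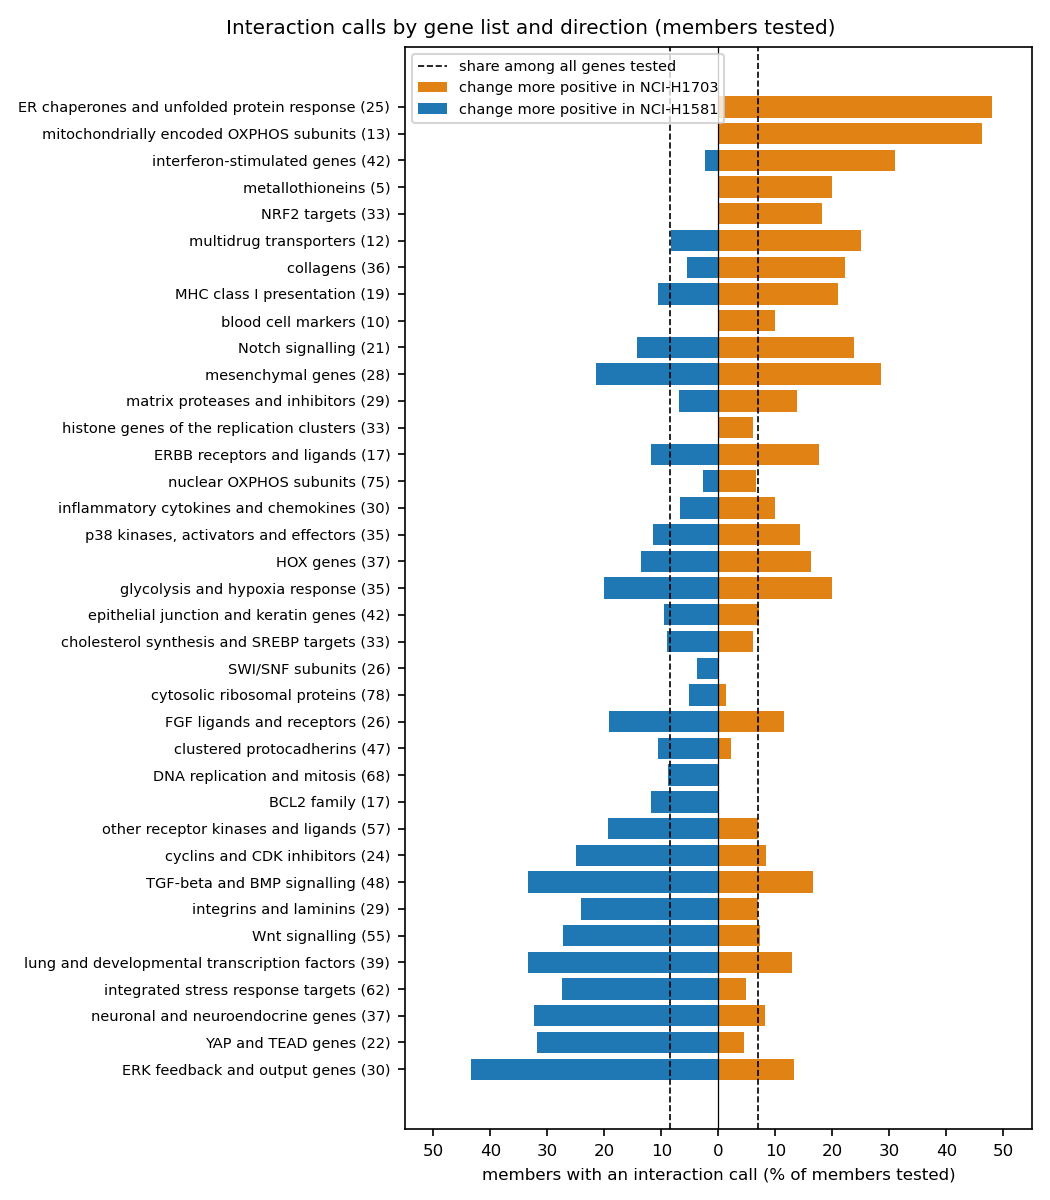
Share of the members tested in each gene list that had a different resistance effect, in percent, with bars to the right for changes more positive in NCI-H1703 and to the left for those more positive in NCI-H1581. Dashed lines mark the shares over all genes tested, 6.93% and 8.47%. ER chaperones reach far right with no bar to the left, ERK outputs and TGF-beta and BMP genes reach mainly left, and cytosolic ribosomal proteins stay inside the dashed lines.

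Of 62 genes of the integrated stress response tested, 31 rose and 5 fell in NCI-H1581R, and 10 rose and 2 fell in NCI-H1703R, with median changes of 0.45 and 0.27. NCI-H1581R had more calls over all 18203 genes as well, with 2330 rising there and 679 in NCI-H1703R. The effect differed for 20 (32.3%), of which 17 were more positive in NCI-H1581 and 15 belonged to the NCI-H1581-only class, all rising. These 20 became 12 without NCI-H1703 replicate 2 or NCI-H1703R replicate 1 and 13 without NCI-H1581 replicate 2 or NCI-H1703 replicate 1, and with GC and length offsets 4 genes were more positive in NCI-H1703 and 12 in NCI-H1581. ATF3, a stress factor downstream of ATF4, measured 1.51 and 1.37 CPM in NCI-H1581, 16 and 17.5 in NCI-H1581R, 33.5 and 34.1 in NCI-H1703 and 31.3 and 35.8 in NCI-H1703R, with no overlap in NCI-H1581 and overlapping levels in NCI-H1703. Its changes were 3.54 ± 0.20 and -0.01 ± 0.13 (difference -3.55 ± 0.24, adjusted p = 8.31e-05, edgeR). CHAC1, which degrades glutathione, measured 9.76 and 9.36 CPM in NCI-H1581, 97.8 and 109 in NCI-H1581R, 42.5 and 40.9 in NCI-H1703 and 64.1 and 70.0 in NCI-H1703R and rose in both lines, by 3.44 ± 0.14 and 0.69 ± 0.12.

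ATF4 itself rose by 1.26 ± 0.13 in NCI-H1581R, against 0.27 ± 0.12 in NCI-H1703 where the change did not pass. ASNS, the asparagine synthetase gene, measured 142 and 180.5 CPM in NCI-H1581, 497 and 506 in NCI-H1581R, 254 and 252 in NCI-H1703 and 327 and 340.0 in NCI-H1703R. Amino acid synthesis genes held 6 of the 20 calls, all more positive in NCI-H1581. The exceptions to the direction were GDF15 and a pair of transporter genes. GDF15, a secreted stress cytokine, measured 1.40 and 0.699 CPM in NCI-H1581, 1.38 and 1.45 in NCI-H1581R, 3.38 and 2.06 in NCI-H1703 and 42.1 and 50.5 in NCI-H1703R and rose in NCI-H1703R alone (4.08 ± 0.26). The transporter genes SLC1A4 and SLC43A1 fell in NCI-H1581R (-0.42 ± 0.14 and -0.79 ± 0.29) and rose in NCI-H1703R (0.68 ± 0.13 and 1.37 ± 0.29).

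The core of the C/EBP-ATF response element through which ATF4 acts, TGATGNAA searched on both strands, was in 15 of 50 list members with a matched promoter window, against 1003 of all 27305 windows (3.67%). Of the 15 with the motif 7 differed between lines, and of the 35 without it 10 did. Stretches of 3 promoters are shown because their genes are among the 7 with both the motif and a different effect, with the core in capitals, at chr1:212565171-212565268 (plus strand), chr15:40953221-40953314 (plus strand) and chr7:97872424-97872521 (minus strand) on GRCh38.p14.
ATF3: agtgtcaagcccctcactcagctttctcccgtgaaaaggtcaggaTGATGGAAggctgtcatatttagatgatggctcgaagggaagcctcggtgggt
CHAC1: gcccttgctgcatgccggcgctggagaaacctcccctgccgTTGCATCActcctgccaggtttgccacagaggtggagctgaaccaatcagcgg
ASNS: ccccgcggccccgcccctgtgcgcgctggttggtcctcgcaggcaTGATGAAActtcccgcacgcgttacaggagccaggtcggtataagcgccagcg

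Chaperones of the ER gave calls in the other direction. All 12 calls among the 25 ER chaperone and unfolded protein response genes tested (48.0%) were more positive in NCI-H1703, and 14 members fell and 1 rose in NCI-H1581R against 3 that rose and 0 that fell in NCI-H1703R. Medians over the list were -0.54 for NCI-H1581 and 0.11 for NCI-H1703. The count moved with single libraries, to 3 without NCI-H1703 replicate 1, 4 without NCI-H1703R replicate 2, 5 without NCI-H1581 replicate 1 and 7 without NCI-H1703 replicate 2, and the median difference stayed between 0.56 and 0.83 under every alternative run. HSPA5, the chief ER chaperone, measured 967 and 841 CPM in NCI-H1581, 543 and 534 in NCI-H1581R, 658 and 707 in NCI-H1703 and 674 and 768 in NCI-H1703R, lower in both NCI-H1581R libraries. Its difference was 0.83 ± 0.20 (adjusted p = 0.0318, edgeR) and did not pass in 4 of the 8 fits that left out a library. DNAJC3, an ER co-chaperone that also restrains the kinase PERK, fell in NCI-H1581R (-0.72 ± 0.14) and rose in NCI-H1703R (0.52 ± 0.13), and kept its call throughout. DNAJB11 and PDIA4, a co-chaperone and a disulphide isomerase, fell in NCI-H1581R (-0.88 ± 0.13 and -0.98 ± 0.16), with 0.13 ± 0.13 and 0.09 ± 0.16 in NCI-H1703.

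The ER stress response element, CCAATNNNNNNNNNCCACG on either strand, is rare, in 22 of 27305 windows (0.0806%), and 6 of the 24 list members with a matched window held it. Of these 6, HSPA5, CALR, CRELD2 and HSP90B1 differed between lines, as did 8 of the 18 without it. The stretches of 3 of them, at chr9:125241346-125241454 (minus strand), chr19:12938359-12938447 (plus strand) and chr22:49918509-49918617 (plus strand), are shown as examples of these 4, with the element in capitals. The calls of CALR and CRELD2 were each lost in 5 of the 8 fits that left out a library.
HSPA5: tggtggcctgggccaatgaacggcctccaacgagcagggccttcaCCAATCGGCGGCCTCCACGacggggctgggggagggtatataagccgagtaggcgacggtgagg
CALR: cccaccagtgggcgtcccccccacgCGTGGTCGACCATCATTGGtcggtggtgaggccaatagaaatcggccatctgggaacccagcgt
CRELD2: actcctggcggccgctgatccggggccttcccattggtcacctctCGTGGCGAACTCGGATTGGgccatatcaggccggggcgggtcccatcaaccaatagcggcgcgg

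Of 42 interferon-stimulated genes tested, 21 fell and 1 rose in NCI-H1581R, while 4 rose and 4 fell in NCI-H1703R, with median changes of -1.19 and 0.10. Of the 42, 14 averaged under 1 CPM in the NCI-H1581 libraries and 13 in the NCI-H1703 libraries. When each library had to hold 10 counts, 27 were tested and 12 passed. The median difference was then 0.46, against 1.19 over the 42. The effect differed for 14 (33.3%), 13 more positive in NCI-H1703, and leaving out any 1 library gave 12 to 15. The summed level of 10 blood cell markers fell in NCI-H1581R and rose in NCI-H1703R. It was 104.0 and 83.0 CPM in NCI-H1581, 21.2 and 16.8 in NCI-H1581R, 28.5 and 23 in NCI-H1703 and 48.6 and 57.9 in NCI-H1703R. CD68 made up most of each sum, and the markers did not move together. In each line 3 of the 10 had a positive change. PTPRC went from 2 and 0 counts in NCI-H1581 to 15 and 15 in NCI-H1581R, and CD14 had 0 to 6 counts in each library. Whether blood cells had a part in the interferon result was not tested. IFIT1, an antiviral protein that binds foreign RNA, measured 12.3 and 14 CPM in NCI-H1581, 5.61 and 4.57 in NCI-H1581R, 6.33 and 5.86 in NCI-H1703 and 7.11 and 6.92 in NCI-H1703R. IFIT3, its partner, measured 2.85 and 2.35 CPM in NCI-H1581, 0.452 and 0.66 in NCI-H1581R, 3.0 and 2.90 in NCI-H1703 and 5.26 and 6.55 in NCI-H1703R, falling in NCI-H1581R and rising in NCI-H1703R. IFIH1, the cytosolic RNA sensor MDA5, had 231 counts in NCI-H1581 and 0 in NCI-H1581R, at least 40.7-fold lower.

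HERC5, a ligase for the interferon-induced modifier ISG15, was the exception in direction. It measured 27.4 and 28.3 CPM in NCI-H1581, 61.2 and 56.9 in NCI-H1581R, 21.2 and 22.2 in NCI-H1703 and 12.6 and 11.7 in NCI-H1703R, rising in NCI-H1581R and falling in NCI-H1703R (adjusted p = 0.000383, edgeR). Antigen presentation genes were mixed, with 6 of 19 tested (31.6%) differing. NLRC5, the activator of MHC class I genes, fell in NCI-H1581R (-2.81 ± 0.58) with 0.14 ± 0.26 in NCI-H1703, whereas the peptide-trimming protease gene ERAP1 rose in NCI-H1581R by 1.95 ± 0.14 and HLA-E rose in NCI-H1703R by 0.85 ± 0.13.

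The interferon response element core, GAAANNGAAA on either strand, was in 22 of 34 interferon-stimulated genes with a matched window, against 996 of 27305 windows (3.65%). Of the 22, 9 differed between lines, and of the 12 without it 3 did. IFIT1, IFIT3, IFIH1 and HERC5 are shown because the first 3 fell in NCI-H1581R and the last rose there, each with copies of the core in capitals. They lie at chr10:89392462-89392574, chr10:89327796-89327929 and chr4:88456949-88457099 on the plus strand and chr2:162318685-162318888 on the minus strand.
IFIT1: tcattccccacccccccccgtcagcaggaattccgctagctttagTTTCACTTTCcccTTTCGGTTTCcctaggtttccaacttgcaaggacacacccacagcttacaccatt
IFIT3: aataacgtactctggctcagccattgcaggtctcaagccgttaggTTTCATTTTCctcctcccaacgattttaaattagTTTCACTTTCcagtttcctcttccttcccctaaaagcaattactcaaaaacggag
IFIH1: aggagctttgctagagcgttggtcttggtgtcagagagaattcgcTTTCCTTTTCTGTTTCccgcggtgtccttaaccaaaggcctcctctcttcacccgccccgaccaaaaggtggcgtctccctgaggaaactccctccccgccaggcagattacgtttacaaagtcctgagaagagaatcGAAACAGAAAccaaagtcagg
HERC5: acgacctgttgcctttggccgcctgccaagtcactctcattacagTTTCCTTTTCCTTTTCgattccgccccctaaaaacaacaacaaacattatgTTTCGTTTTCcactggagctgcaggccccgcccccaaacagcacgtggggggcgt
HERC5, which rose, held the core as did the genes that fell.

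Mesenchymal genes split, with 8 of 14 calls more positive in NCI-H1703 and 6 in NCI-H1581, among 28 tested (50.0%). FN1, the matrix protein fibronectin, on chromosome 2 (GRCh38, 215360440 to 215436073, minus strand), measured 0.623 and 1.42 CPM in NCI-H1581, 745 and 919 in NCI-H1581R, 9.03 and 10.2 in NCI-H1703 and 5.50 and 5.75 in NCI-H1703R. NCI-H1581R went from the lowest to the highest level of the 4 groups, and NCI-H1703 changed by -0.77 ± 0.23 without passing (difference -10.39 ± 0.36, adjusted p = 6.28e-06, edgeR). THY1, a surface protein of fibroblasts, fell in NCI-H1581R (-4.42 ± 0.20) with 0.33 ± 0.14 in NCI-H1703. ACTA2, smooth muscle actin, fell in NCI-H1581R (-2.10 ± 0.15) and rose in NCI-H1703R (1.30 ± 0.22). CDH2, N-cadherin, fell in both lines and by more in NCI-H1703R (-1.38 ± 0.32 and -5.46 ± 0.24).

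ZEB1 and ZEB2, paralogous repressors of epithelial genes, did not move together. ZEB1 rose by 3.66 ± 0.31 in NCI-H1581R, the variant in which ZEB2 fell, and had -0.25 ± 0.23 in NCI-H1703. Epithelial junction and keratin genes differed in 7 of 42 tested (16.7%), close to the share over all genes. KRT18, a simple epithelial keratin, measured 2.08 and 1.07 CPM in NCI-H1581, 2.05 and 0.94 in NCI-H1581R, 64.3 and 65.4 in NCI-H1703 and 2.88 and 2.48 in NCI-H1703R, a fall in NCI-H1703R alone. PERP, a desmosome gene, measured 1.07 and 1.57 CPM in NCI-H1581, 76.8 and 47.7 in NCI-H1581R, 95.8 and 107 in NCI-H1703 and 89.6 and 103 in NCI-H1703R, a rise in NCI-H1581R alone.

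Collagens fell in NCI-H1581R, 13 of 36 tested against 2 that rose, and in NCI-H1703R 4 rose and 3 fell. The effect differed for 10 (27.8%), 8 of them more positive in NCI-H1703, a count that became 6 without NCI-H1703 replicate 2 or NCI-H1703R replicate 1. COL1A1, the main chain of fibrillar type I collagen, measured 61.3 and 57 CPM in NCI-H1581, 22.1 and 33 in NCI-H1581R, 1.05 and 0.897 in NCI-H1703 and 26.4 and 21.8 in NCI-H1703R, falling in NCI-H1581R and rising in NCI-H1703R from near 1 CPM (-1.10 ± 0.20 and 4.62 ± 0.31, adjusted p = 5.98e-05, edgeR). COL26A1 did the reverse (3.19 ± 0.15 and -1.35 ± 0.16). TIMP1, an inhibitor of matrix proteases, measured 197 and 171 CPM in NCI-H1581, 0.319 and 0.0508 in NCI-H1581R, 72.7 and 71.2 in NCI-H1703 and 84.4 and 103 in NCI-H1703R, and MMP2, a gelatinase, had changes of -4.51 ± 0.22 and -0.26 ± 0.62.

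All 7 calls among 18 integrin genes tested were more positive in NCI-H1581. The full list of integrins and laminins had 9 of 29 (31.0%), which became 4 without NCI-H1703 replicate 2 or NCI-H1703R replicate 1 and 5 without NCI-H1581 replicate 1, NCI-H1581 replicate 2, NCI-H1703 replicate 1 or NCI-H1703R replicate 2, and DESeq2 placed 4 more positive in NCI-H1703 and 6 in NCI-H1581. ITGA3, a laminin receptor chain, rose in NCI-H1581R (1.55 ± 0.17) and fell in NCI-H1703R (-0.98 ± 0.14). ITGB5 rose in NCI-H1581R (2.86 ± 0.20) with -0.19 ± 0.17 in NCI-H1703. Among laminins, LAMA2 fell in NCI-H1581R (-5.45 ± 0.43) and rose in NCI-H1703R (0.83 ± 0.22).

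**Figure D4:**
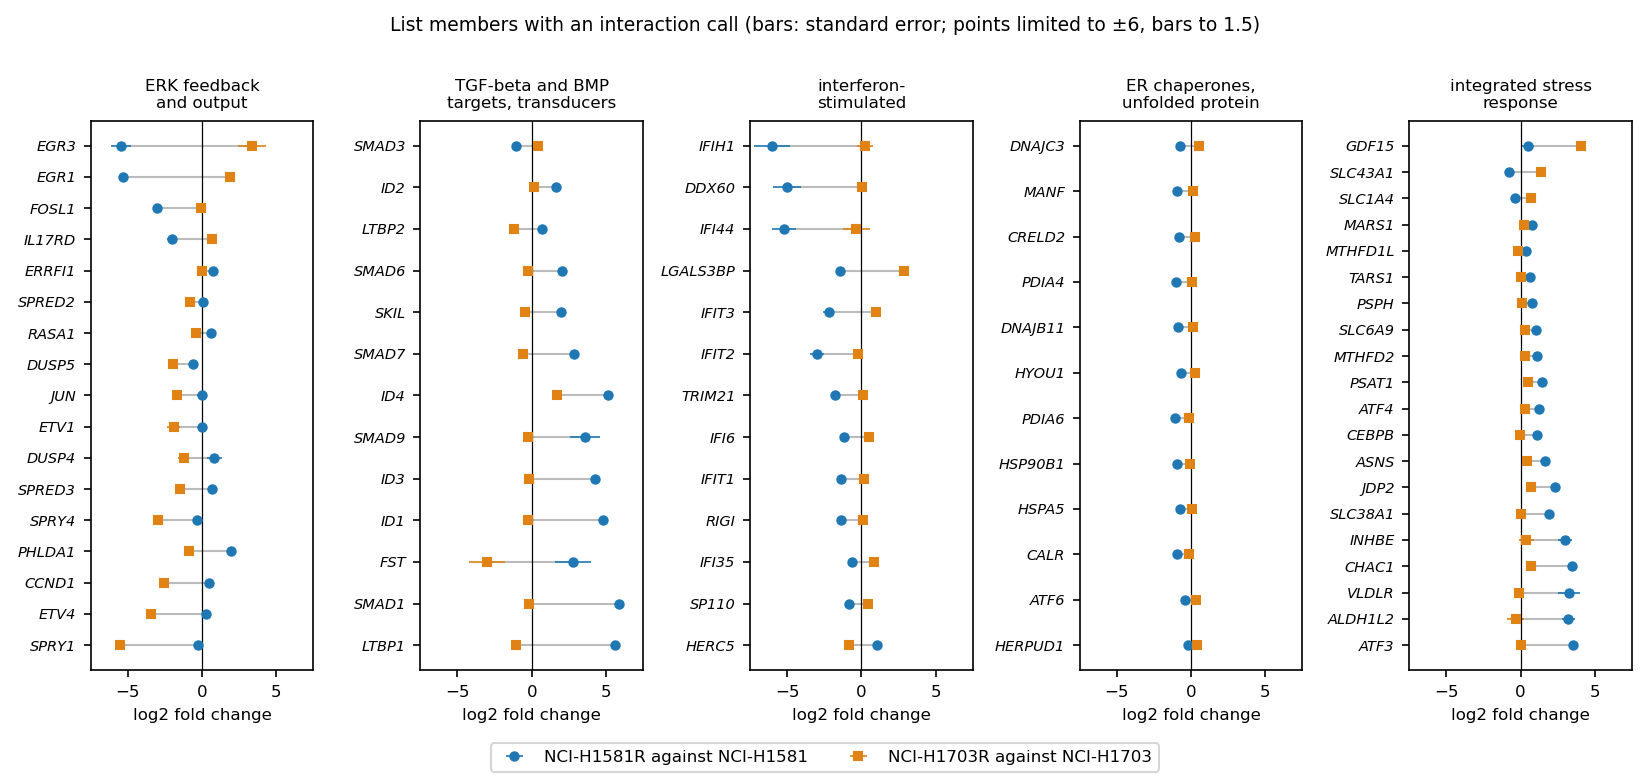
Log2 fold change in NCI-H1581 (circles) and in NCI-H1703 (squares), with standard errors, for members of 5 gene lists whose resistance effect differed between the lines, with points limited to 6 in either direction and bars to 1.5. Among targets and transducers of TGF-beta and BMP the circles lie to the right of the squares in 12 of 13 genes, and among the interferon-stimulated genes shown to the left in 12 of 13.

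Developmental transcription factors differed in 18 of 39 tested (46.2%), 13 of them more positive in NCI-H1581. When each library had to hold 10 counts, 17 were tested and 11 passed. Besides SOX2 and GATA6, the neural and limb factor LHX2 measured 9.82 and 9.34 CPM in NCI-H1581, 105 and 107 in NCI-H1581R, 32.2 and 32.1 in NCI-H1703 and 25.3 and 32.1 in NCI-H1703R. TFAP2A, a factor of neural crest and skin, fell in NCI-H1581R (-2.15 ± 0.27) and rose in NCI-H1703R (1.19 ± 0.15). RUNX1 fell in both lines (-6.43 ± 0.38 and -1.30 ± 0.18), while its paralog RUNX2 had 1.26 ± 0.53 in NCI-H1581 and fell in NCI-H1703R (-4.41 ± 0.66). FOXA1, a pioneer factor of lung epithelium, rose in NCI-H1581R (2.94 ± 0.23) with -0.86 ± 0.28 in NCI-H1703.

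HOX genes, which set position along the body axis, differed in 11 of 37 tested (29.7%). All but 2 of the 11 calls belonged to the NCI-H1581-only class, 6 falling and 3 rising. When each library had to hold 10 counts, 12 were tested and 7 passed. HOXC10 measured 46 and 44.1 CPM in NCI-H1581, 0.345 and 0.229 in NCI-H1581R, 76.2 and 77.6 in NCI-H1703 and 75.8 and 81.5 in NCI-H1703R, and HOXC8 8.34 and 7.32 CPM in NCI-H1581, 33.5 and 36 in NCI-H1581R, 27.6 and 25.7 in NCI-H1703 and 31.1 and 31 in NCI-H1703R, so neighbours in the HOXC cluster on chromosome 12 moved apart in NCI-H1581R. HOXC9 fell in NCI-H1581R (-1.89 ± 0.21). In the HOXD cluster on chromosome 2, HOXD8 went from 1048 counts to 4, a ratio of 273 (106 to 1010), and HOXD9 and HOXD3 from 121 and 143 counts to 0, at least 21.2-fold and 25.3-fold lower. The changes of these HOXC and HOXD genes in NCI-H1703 did not pass, at 0.03 ± 0.11 for HOXC10 and 0.19 ± 0.19 for HOXD8.

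Wnt genes differed in 19 of 55 tested (34.5%), 15 more positive in NCI-H1581. The count was well below this without any 1 library of NCI-H1703 or NCI-H1703R. When each library had to hold 10 counts, 29 were tested and 12 passed. WNT2B measured 8.10 and 9.96 CPM in NCI-H1581, 442 and 432 in NCI-H1581R, 4.33 and 3.86 in NCI-H1703 and 4.02 and 3.48 in NCI-H1703R, a rise in NCI-H1581R alone. WNT5B fell in NCI-H1703R (-2.77 ± 0.14) with 0.99 ± 0.49 in NCI-H1581, and the receptor gene FZD8 rose in NCI-H1581R (2.76 ± 0.25) and fell in NCI-H1703R (-1.84 ± 0.52). Notch genes differed in 8 of 21 (38.1%), which became 3 without NCI-H1703 replicate 2, NCI-H1703R replicate 1 or NCI-H1703R replicate 2, 4 without NCI-H1581 replicate 1 and 5 without NCI-H1703 replicate 1. The Notch ligand gene JAG1 fell in NCI-H1581R (-3.15 ± 0.35) with 0.40 ± 0.35 in NCI-H1703, and so did the target gene HES1 (-2.08 ± 0.20 and -0.22 ± 0.15).

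Genes of YAP and TEAD, the effectors of Hippo signalling, differed in 8 of 22 tested (36.4%), 7 more positive in NCI-H1581. The count was 13 without NCI-H1581R replicate 1, and DESeq2 placed 4 more positive in NCI-H1703 and 7 in NCI-H1581. CCN1, a secreted matrix regulator and YAP target, measured 1.69 and 1.62 CPM in NCI-H1581, 15.5 and 17 in NCI-H1581R, 202 and 230.4 in NCI-H1703 and 60.3 and 98.4 in NCI-H1703R, with a rise in NCI-H1581R and a fall in NCI-H1703R. YAP1 rose by 0.88 ± 0.13 in NCI-H1581R with -0.28 ± 0.13 in NCI-H1703. In the p38 list 9 of 35 differed (25.7%), 5 more positive in NCI-H1703 and 4 in NCI-H1581. Among effectors 4 calls were more positive in NCI-H1703 and 1 in NCI-H1581, and all 3 calls among activators were more positive in NCI-H1581. Among p38 kinases 1 of 4 tested differed, more positive in NCI-H1703, with neither line passing alone. MAP3K5, an activator kinase of p38 and JNK, measured 0.208 and 0.774 CPM in NCI-H1581, 33.7 and 45 in NCI-H1581R, 19.4 and 21 in NCI-H1703 and 7.35 and 9.16 in NCI-H1703R, and GADD45A, a stress activator of p38, rose in NCI-H1581R (2.20 ± 0.37) and fell in NCI-H1703R (-0.60 ± 0.16). MAPK14, the p38 alpha kinase, had a difference of -0.15 ± 0.19 (adjusted p = 0.745, edgeR), which turned positive with GC and length offsets.

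Receptor tyrosine kinases other than FGFR and ERBB, with their ligands, differed in 15 of 57 tested (26.3%). The count was well below this without NCI-H1703 replicate 2 or NCI-H1703R replicate 1. With 10 counts in each library, 30 were tested and 9 passed. HGF, the ligand of MET, measured 213 and 237 CPM in NCI-H1581, 1.54 and 1.32 in NCI-H1581R, 0.27 and 0.0897 in NCI-H1703 and 0.132 and 0.106 in NCI-H1703R, a loss in NCI-H1581R. MET had changes of 1.08 ± 0.41 and -0.39 ± 0.13, neither of which passed alone, with a difference of -1.48 ± 0.43 (adjusted p = 0.0667, edgeR) that passed in 2 of the 8 fits leaving out a library. KITLG, the ligand of KIT, rose in NCI-H1581R (4.26 ± 0.53) and fell in NCI-H1703R (-3.62 ± 0.96), where its libraries held 0 and 18 counts, and its difference of -7.89 ± 1.05 became -14.04 without NCI-H1703R replicate 2. EGFR had a difference of 1.52 ± 0.96 that did not pass (adjusted p = 0.41, edgeR), at 0.267 and 0.849 CPM in NCI-H1581, 0 and 0.279 in NCI-H1581R, 334 and 336 in NCI-H1703 and 224 and 255 in NCI-H1703R.

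Drug transporter genes gave 4 calls among 12 tested (33.3%), or 2 without NCI-H1581 replicate 1, NCI-H1703 replicate 2 or NCI-H1703R replicate 1. ABCG2, an efflux pump, measured 0.534 and 0.275 CPM in NCI-H1581, 596 and 439.8 in NCI-H1581R, 0.135 and 0.209 in NCI-H1703 and 0.132 and 0.211 in NCI-H1703R, a rise in NCI-H1581R alone. ABCB1, the pump P-glycoprotein, measured 0.0297 and 0.0999 CPM in NCI-H1581, 228 and 243 in NCI-H1581R, 0.027 and 0 in NCI-H1703 and 0.0264 and 0.0792 in NCI-H1703R. It rose in NCI-H1581R by 11.69 ± 0.27. With 0 to 3 counts in each NCI-H1703 and NCI-H1703R library, the difference of -10.02 ± 3.70 did not pass (adjusted p = 0.121, edgeR). MVP, the major vault protein, fell in NCI-H1581R (-1.24 ± 0.13) and rose in NCI-H1703R (0.64 ± 0.12). Neuronal genes differed in 15 of 37 (40.5%), 12 more positive in NCI-H1581, and became 7 without NCI-H1703 replicate 2, 8 without NCI-H1703R replicate 1 and 9 without NCI-H1581 replicate 1 or NCI-H1703 replicate 1. The neurofilament gene NEFH measured 49.3 and 50.9 CPM in NCI-H1581, 37.8 and 75.1 in NCI-H1581R, 153 and 149.8 in NCI-H1703 and 2.67 and 3.14 in NCI-H1703R, and the neuronal enolase gene ENO2 rose in NCI-H1581R (0.66 ± 0.18) and fell in NCI-H1703R (-3.06 ± 0.37). The gap junction gene GJA1 and the microtubule gene MAP2 rose in both lines, and their differences of 1.67 ± 0.61 and -0.42 ± 0.32 did not pass (adjusted p = 0.135 and 0.516, edgeR).

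Cyclins, their kinases and their inhibitors differed in 8 of 24 tested (33.3%), of which 4 were opposite, each rising in NCI-H1581R. The count was 5 without NCI-H1703 replicate 2, and with GC and length offsets 4 were more positive in NCI-H1703 and 6 in NCI-H1581. Besides CCND1 these 4 included its kinase CDK6 (0.62 ± 0.15 and -0.76 ± 0.15) and the inhibitor gene CDKN2B (0.86 ± 0.20 and -0.83 ± 0.19). DNA replication and mitosis genes differed in 6 of 68 tested (8.82%), below the 15.4% over all genes, and this count was 10 with a replicate block within each line, 2 without NCI-H1581 replicate 1, NCI-H1703 replicate 1, NCI-H1703 replicate 2 or NCI-H1703R replicate 2, 3 without NCI-H1703R replicate 1, 12 without NCI-H1581R replicate 2 and 20 without NCI-H1581R replicate 1. The replication genes among them had 1 call in 37, with 14 falling in NCI-H1581R and 4 in NCI-H1703R. SWI/SNF subunits had 1 call in 26 (3.85%), SMARCC1 (-0.01 ± 0.12 and -0.75 ± 0.12), which was 3 with the replicate block, 0 without NCI-H1703 replicate 2 or NCI-H1703R replicate 1, 2 without NCI-H1581R replicate 2 and 8 without NCI-H1581R replicate 1.

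Glycolysis and hypoxia genes had 7 of 14 calls in each direction among 35 tested, and the count became 9 without NCI-H1703 replicate 1 or NCI-H1703R replicate 2. The glucose transporter gene SLC2A3 rose in NCI-H1581R (1.86 ± 0.16) and fell in NCI-H1703R (-0.72 ± 0.16), whereas hexokinase HK2 fell in NCI-H1703R (-1.93 ± 0.22) with 0.31 ± 0.18 in NCI-H1581. The aldolase gene ALDOC fell in NCI-H1581R (-3.62 ± 0.27) with 0.03 ± 0.49 in NCI-H1703. NRF2 targets gave 6 calls among 33 (18.2%), close to the 15.4% over all genes, and all 6 were more positive in NCI-H1703. The count fell without NCI-H1581 replicate 1, NCI-H1581 replicate 2, NCI-H1703 replicate 1, NCI-H1703 replicate 2 or NCI-H1703R replicate 2 and rose without NCI-H1581R replicate 1. DESeq2 placed 7 more positive in NCI-H1703 and 1 in NCI-H1581. OSGIN1 fell in NCI-H1581R (-2.13 ± 0.25) and rose in NCI-H1703R (1.29 ± 0.17), and the haem oxygenase gene HMOX1 fell in NCI-H1581R (-0.95 ± 0.16) with 0.26 ± 0.15 in NCI-H1703.

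The 13 transcripts encoded by mitochondrial DNA all had negative changes in NCI-H1581 and positive ones in NCI-H1703, with medians of -0.95 and 0.32. Of these 8 fell in NCI-H1581R and 0 changed in NCI-H1703R by the test, and the effect differed for 6. MT-CO2, a cytochrome oxidase subunit, measured 7841 and 5837 CPM in NCI-H1581, 3581 and 2772 in NCI-H1581R, 2960.0 and 1851 in NCI-H1703 and 3138 and 2398 in NCI-H1703R (difference 1.31 ± 0.40, adjusted p = 0.0812, edgeR). The count moved with single libraries, to 0 without NCI-H1581 replicate 1, NCI-H1703 replicate 2 or NCI-H1703R replicate 1, 1 without NCI-H1581 replicate 2 and 2 without NCI-H1581R replicate 2. All 13 passed when the culture round was added as a replicate block within each line, and 12 by DESeq2. Nuclear-encoded subunits of the same complexes had 7 calls among 75 (9.33%), 13 with the replicate block, 0 without NCI-H1581 replicate 1, NCI-H1581 replicate 2, NCI-H1703 replicate 1 or NCI-H1703R replicate 2, 1 without NCI-H1703 replicate 2 or NCI-H1703R replicate 1 and 42 without NCI-H1581R replicate 1.

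Part of what moved in 1 line followed position on the chromosome. The plot by gene order, from runs of 25 neighbouring genes, had 4 stretches where most genes shifted together in 1 line, and they were picked after their values were seen. On 16q, chr16:46578591-90096188 on GRCh38, 275 genes with at least 1 CPM had a median log2 change of -0.69 in NCI-H1581 and 92.7% were below 0, against -0.02 on the rest of the chromosome and -0.07 for the stretch in NCI-H1703. On 19q, chr19:49061066-58573575, 210 genes had a median of -0.95 in NCI-H1703, 91.9% below 0, and 0.06 in NCI-H1581. On Xp, chrX:47078355-57910458, 82 genes had a median of 0.77 in NCI-H1703, 92.7% above 0, and 0.11 in NCI-H1581. On 5q, chr5:57173948-79991262, 78 genes had medians of -0.40 in NCI-H1703 and 0.28 in NCI-H1581.

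**Figure D5:**
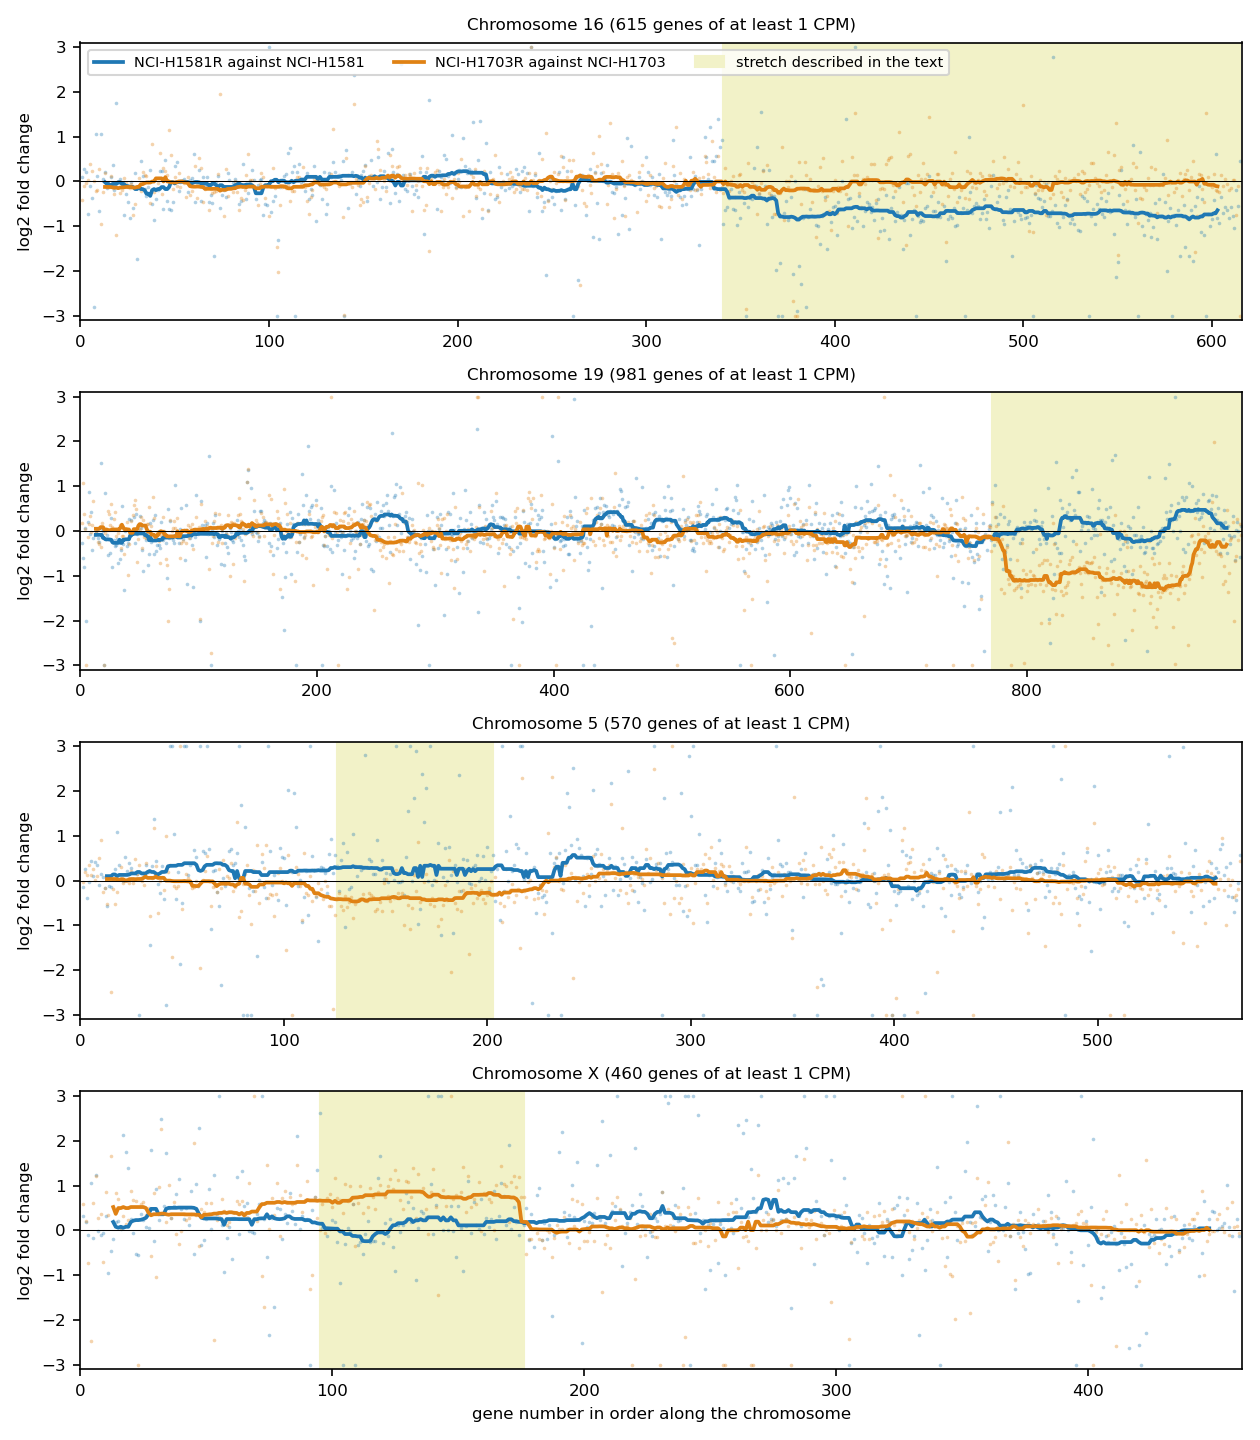
Log2 fold change of each gene with at least 1 CPM (points, limited to 3 in either direction) and the running median over 25 neighbours (lines) against gene order on chromosomes 16, 19, 5 and X, for NCI-H1581 and NCI-H1703, with the stretches described in the text shaded. The 16q stretch lies below 0 in NCI-H1581 (median -0.69), and in NCI-H1703 the 19q stretch lies below 0 (-0.95) and the Xp stretch above it (0.77).

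The 19q stretch, with 288 of the 18203 genes tested, held 75 of the 514 NCI-H1703-only genes (14.6%). The 16q stretch, with 349 genes tested, held 89 of the 1633 NCI-H1581-only genes (5.45%). The effect differed for 102 genes of the 19q stretch (35.4%) and 98 of the 16q stretch (28.1%), against 15.4% of all genes. The 19q stretch carries a large cluster of zinc finger genes. Of the 102 zinc finger genes there with at least 1 CPM, 49 fell and 0 rose in NCI-H1703R, with medians of -0.94 in NCI-H1703 and 0.30 in NCI-H1581. All 210 genes of the stretch at that level had a median of -0.95 in NCI-H1703, so the zinc finger genes did not stand out there. Over all genes tested, 1051 of 18203 fell and 679 rose in NCI-H1703R. Outside all 4 stretches, 2542 of 17353 genes (14.6%) still differed, among them 339 opposite, 1518 NCI-H1581-only and 407 NCI-H1703-only genes. DNA copy number was not analysed here, and its part in these shifts was not tested.

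Ribosomal protein genes showed how far position reached into a list. Of 78 tested, 5 differed (6.41%), and 4 of the 5 lie in the 19q stretch and fell in NCI-H1703R, among them RPL13A and RPL28, with log2 changes of -1.07 ± 0.21 and -1.26 ± 0.16. The call of RPL13A was lost in 5 of the 8 fits that left out a library. RPS9, also in that stretch, had -0.95 ± 1.19 and did not pass. The 73 ribosomal protein genes elsewhere had a median of -0.15 in NCI-H1703 and 0.12 in NCI-H1581. The list's count was 2 without NCI-H1581 replicate 1, NCI-H1581 replicate 2 or NCI-H1703 replicate 1, 3 without NCI-H1703 replicate 2 or NCI-H1703R replicate 1 and 45 without NCI-H1581R replicate 2. Other list members with calls in these stretches were HERPUD1, NLRC5, OSGIN1, NKD1, MVD, MMP2, RBL2, CDH3 and MT1X on 16q, TEAD2 and NDUFA3 on 19q, ELK1, TIMP1 and EBP on Xp, and CCNB1 and MAP1B on 5q. ELK1, an ETS factor that works with serum response factor at genes such as EGR1, measured 188 and 162 CPM in NCI-H1581, 165 and 119 in NCI-H1581R, 72.6 and 73.8 in NCI-H1703 and 141 and 159 in NCI-H1703R, a rise in NCI-H1703R alone (1.03 ± 0.17, adjusted p = 0.0107, edgeR).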

How the data were processed

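RNA of 8 libraries, 2 in each of 4 groups, was sequenced by the authors, who quantified transcripts with Salmon against GRCh38 and imported them with tximport. The submitters' processing notes also name cutadapt. Tool versions are not given in the sources used here. The deposited table holds the authors' estimated counts per Ensembl gene, given as whole numbers, with totals of 33800389 to 40031710 per library, all of whose columns matched a sample.

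Genes with at least 10 counts in total were fitted in edgeR 4.0.16 (R 4.3.3) with TMM scaling and the quasi-likelihood test, two-sided, as 4 groups without a block. The contrast was (NCI-H1703R minus NCI-H1703) minus (NCI-H1581R minus NCI-H1581), Benjamini-Hochberg adjusted over all genes tested, with calls below 0.1. SE is the absolute log2 change divided by the square root of F. DESeq2 1.42.0, other scalings and filters, offsets for GC content and length, replicate blocks and leaving out each library were alternatives. Symbols, positions, overlaps, GC content and lengths came from the GENCODE annotation of GRCh38, and promoter windows from RefSeq on GRCh38.p14. Values of a few list members are not reported here. No set test was run, and lists are described by counts and medians.

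The members and lists were chosen with earlier results of these data known. Genes were named by rule: the 8 largest differences in each direction among protein-coding genes, with calls, at least 5 CPM in a group and no overlap of libraries in the line with the larger change, the 8 clearest opposite genes in each direction by the smaller of both changes, up to 4 called members of each list by adjusted p with at least 1 CPM in a group, and FGFR1, FGF5, DUSP6, SPRY2, SPRY4, ETV4, ETV5, MAPK14, ABCB1, MET, EGFR, GJA1 and MAP2. Another 33 genes with values were chosen after these were seen, among them EGR3, SMAD6, SMAD7, HSPA5, IFIT1, ATF4, ACTA2 and HGF, as were the 4 chromosome stretches, and CDH1, NKX2-1, RPS9 and further symbols are named as positions or markers.

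Culture was repeated as a whole for the second replicate per the labels. Deviations of same-numbered libraries correlated at 0.278 between NCI-H1581 and NCI-H1581R and 0.523 between NCI-H1703 and NCI-H1703R over 9157 genes. Across the lines the values were 0.075 for NCI-H1581 with NCI-H1703, -0.108 for NCI-H1581 with NCI-H1703R, -0.347 for NCI-H1581R with NCI-H1703 and -0.53 for NCI-H1581R with NCI-H1703R. The main fit and its counts used no pairing, and a replicate block within each line was an alternative. Replicates of each group differed by more than sampling noise (chi-square per degree of freedom 24.63 to 103.2). Tested on simulated data with 200 changed genes among 18203, the interaction fit recovered 94 with 7 false calls, namely 1 of 50 genes changed 1.5-fold, 14 of 50 at 2-fold, 33 of 50 at 4-fold and 46 of 50 at 8-fold. The changed genes were drawn from genes well expressed in both lines, and no other gene changed with resistance.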

Additional observations from a re-analysis of the deposited data

Results flagged for a closer look

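The resistance effect differed between NCI-H1581 and NCI-H1703 by a test of the difference itself, edgeR's quasi-likelihood interaction test, in 2803 genes. Among the genes named for size, GCG had the largest difference in favour of NCI-H1703 with at least 10 counts in every library (log2 difference 10.85). It ran from 10.51 to 11.13 when a library was left out. The others with such counts were EGR1 (7.20), ZEB2 (6.07), C14orf132 (4.97), EYA4 (4.48), LGALS3BP (4.29), GPR137B (4.29) and NID1 (3.29). Each of these others fell in NCI-H1581R and rose in NCI-H1703R. The reverse held for HUNK (-9.46), FLRT2 (-8.01) and SEMA3D (-5.49), which rose in NCI-H1581R and fell in NCI-H1703R. SOX2 (-9.29), MARCHF4 (-8.40), FHOD3 (-11.76) and NRG1 (-10.42) moved the same way but had under 10 counts in at least 1 library, and the difference of NRG1 ran from -14.84 to -9.33 when a library was left out.

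The other differences flagged rested mostly on very few counts in a group, and their fitted sizes depend on the prior count. In favour of NCI-H1703 these were CNTNAP4 (10.70), TGFB2 (10.46), PTN (10.45), TIMP1 (10.34), FAP (10.24), DGKI (10.24) and the gene with the identifier ENSG00000273217 (11.66). In favour of NCI-H1581 they were PEG3 (-15.31), ALDH1A2 (-15.26), PRDM1 (-15.06), SGPP2 (-13.92), RUNDC3B (-13.39), NPR3 (-13.20), RGCC (-13.17) and MAML3 (-12.72). As counted ratios between NCI-H1581R and NCI-H1581, RUNDC3B rose 4380-fold (95% counting interval 786 to 173000), SGPP2 3050-fold (546 to 120000), ALDH1A2 2330-fold (911 to 8560) and RGCC 899-fold (161 to 35500), while CNTNAP4 was 2220-fold (398 to 87800) and ENSG00000273217 at least 111-fold lower. Without single libraries the calls of CNTNAP4, PTN, ALDH1A2, MAML3 and ENSG00000273217 were lost in 3, 2, 1, 1 and 6 of the 8 fits.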

How the results depend on the processing

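Of 159 named genes with a different effect, 121 kept the call in all 8 fits that left out a library and in every other alternative that tested the gene, and of the 33 further genes 27 did. Leaving out a library gave 1571 to 4141 genes with a different effect, 120 to 656 opposite, 1039 to 2374 NCI-H1581-only and 239 to 766 NCI-H1703-only. The count of 2803 fell without any 1 library of NCI-H1581, NCI-H1703 or NCI-H1703R, and most without NCI-H1703 replicate 2. It rose without either library of NCI-H1581R, the group whose replicates differed most. At an adjusted p below 0.05 there were 200 opposite genes, with each line's own 4 libraries 816 NCI-H1703-only genes, and with GC and length offsets and the replicate block within each line 555 opposite genes. The replicate block within each line gave 3437 genes, changed none of the 167 named genes, and moved the list counts given beside their results, a block shared by both lines 2526 and DESeq2 3543. The difference of MAPK14 turned to 0.0399 with GC and length offsets and 0.0404 when the block was added. The causes were not tested. At this depth and with 2 libraries per group, the fit recovered 14 of 50 genes changed 2-fold in the simulated interaction over 18203 genes, so a difference of that size that did not pass may have been missed. The simulation changed 200 well expressed genes, against 2803 called in the data, so its rate of recovery need not hold for the data.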
